A study of Mus musculus with 8 samples.

Results

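The genes described here are induced by type I or gamma interferon. They were taken from a list of 40 symbols, looked up by name in a deposited table of 19126 mouse genes. Of these, 38 have a row in the table and all 38 had enough reads to be tested. The other two, Mx1 and Mx2, were not analysed here. The RNA came from whole left ears of 8 C57BL/6 mice aged 6 to 8 weeks, all treated with the contact sensitiser dinitrofluorobenzene (DNFB), which causes allergic contact dermatitis in mice that have met it before. Every mouse met DNFB on the first day, as 25 µL at 0.3%, and, from day 6, 10 µL of 0.25% DNFB on the left ear. The inhibitor group (4 mice) was injected intraperitoneally with 10 mg/kg of MMP-9-IN-1, an inhibitor of matrix metalloproteinase 9, an enzyme that cuts extracellular matrix. The vehicle group (4 mice) was injected with the same volume of the solvent, 10% DMSO, 40% PEG300 and 50% PBS, and ears were taken after 4 days. The labels give no sex, and ears that met no DNFB were not analysed here, so the values compare inflamed ears with inflamed ears and hold no baseline level of the interferon response.

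Type I interferons are secreted when cells sense foreign or misplaced nucleic acid, and gamma interferon is released mainly by activated T cells and natural killer cells. The type I receptor acts through the kinases Jak1 and Tyk2 and a complex that holds Stat2 and Irf9 and binds the interferon-stimulated response element (ISRE) in promoters. The gamma receptor acts through Jak1 and Jak2, and many of its target genes carry the gamma-activated sequence (GAS). In contact dermatitis, gamma interferon from T cells that recognise the sensitiser acts on keratinocytes and infiltrating cells, where it raises antigen presentation. The 38 genes were divided by textbook knowledge into 16 that are mainly known as gamma interferon targets and 22 that are mainly known as type I targets, although many of them answer to both.

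Promoter sequences are shown first, because both elements can be read in them. RefSeq windows of mouse build GRCm38.p6, from 250 bases before to 50 bases after a transcription start, were matched by gene identifier for 32 of the 38 genes. The deposited counts were made on another build. Both strands were searched for an ISRE core, written as GAAA, any 2 bases and GAAA, and for the GAS pattern TTCNNNGAA. An ISRE core stood in 19 of the 32 genes (59.4%), compared with 3.99% of 27025 genes with such a window. A GAS pattern stood in 10 of the 32 genes (31.2%), compared with 9.55% of all genes. Counted by window, 19 of the 36 windows of these genes (52.8%) held an ISRE core, against 3.44% of 32851 windows, and 10 (27.8%) held a GAS pattern, against 8.30%. The 14 matched gamma interferon targets had an ISRE core in 9 genes and a GAS pattern in 7, and the 18 matched type I targets had them in 10 and 3. An ISRE and a GAS match overlapped in 1 window. The windows below belong to the 6 genes with the smallest unadjusted p between the groups among those with a match. They are written 5′ to 3′ on the strand of the gene, with the matched bases in capitals.
Socs1: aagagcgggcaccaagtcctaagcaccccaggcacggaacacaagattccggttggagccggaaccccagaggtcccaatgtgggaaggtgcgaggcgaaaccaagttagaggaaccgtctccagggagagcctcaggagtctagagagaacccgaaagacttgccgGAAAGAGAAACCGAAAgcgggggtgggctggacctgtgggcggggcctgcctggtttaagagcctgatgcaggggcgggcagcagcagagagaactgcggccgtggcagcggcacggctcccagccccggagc
Gbp7: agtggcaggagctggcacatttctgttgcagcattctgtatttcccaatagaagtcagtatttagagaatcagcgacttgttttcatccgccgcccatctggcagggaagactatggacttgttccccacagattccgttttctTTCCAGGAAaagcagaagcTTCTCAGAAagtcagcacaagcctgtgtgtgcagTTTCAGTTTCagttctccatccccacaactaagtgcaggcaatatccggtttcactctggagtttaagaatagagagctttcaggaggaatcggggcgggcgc
Irf1: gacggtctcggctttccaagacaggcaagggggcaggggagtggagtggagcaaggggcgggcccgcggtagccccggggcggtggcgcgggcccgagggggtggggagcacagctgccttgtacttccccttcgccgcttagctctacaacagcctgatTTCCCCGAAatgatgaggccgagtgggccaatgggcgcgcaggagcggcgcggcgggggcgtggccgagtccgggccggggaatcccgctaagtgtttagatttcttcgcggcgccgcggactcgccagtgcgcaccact
Ifit3: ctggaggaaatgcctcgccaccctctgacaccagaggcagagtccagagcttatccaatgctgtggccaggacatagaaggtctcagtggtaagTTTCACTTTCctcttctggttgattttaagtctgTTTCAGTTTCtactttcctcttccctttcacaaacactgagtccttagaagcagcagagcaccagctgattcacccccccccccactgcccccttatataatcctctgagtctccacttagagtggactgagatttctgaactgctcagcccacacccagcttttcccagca
Isg15: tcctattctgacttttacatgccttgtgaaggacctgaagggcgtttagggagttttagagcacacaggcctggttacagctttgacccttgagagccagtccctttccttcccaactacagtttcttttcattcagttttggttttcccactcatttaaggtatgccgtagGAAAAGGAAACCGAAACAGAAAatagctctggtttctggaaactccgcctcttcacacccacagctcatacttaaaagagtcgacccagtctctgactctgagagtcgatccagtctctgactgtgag
Oas3: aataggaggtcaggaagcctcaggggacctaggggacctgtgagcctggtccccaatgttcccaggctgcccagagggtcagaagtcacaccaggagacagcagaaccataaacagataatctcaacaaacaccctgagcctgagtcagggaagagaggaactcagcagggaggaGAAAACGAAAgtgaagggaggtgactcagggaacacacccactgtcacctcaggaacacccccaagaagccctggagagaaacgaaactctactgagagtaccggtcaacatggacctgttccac

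The Socs1 window (chr16:10785487-10785786, minus strand) holds overlapping ISRE cores that begin 83 and 77 bases before the start. The Isg15 window (chr4:156200769-156201068, minus strand) holds an unbroken run of 3 cores, which begin 78, 72 and 66 bases before the start. In the Ifit3 window (chr19:34583279-34583578, plus strand) the cores begin 156 and 122 bases upstream, and the Oas3 window (chr5:120777610-120777909, minus strand) has a single core 75 bases upstream. Gbp7 (chr3:142530086-142530385, plus strand) carries both patterns, with GAS matches beginning 106 and 87 bases and an ISRE core 53 bases upstream. The Irf1 window (chr11:53769764-53770063, plus strand) holds only a GAS pattern, 90 bases upstream. A match is a string of letters in this window and not a measured binding site.

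The libraries held 13863145 to 18512200 reads over genes, and each of the 38 genes drew between 9 and 12295 of them in a library. Keratinocyte markers were present in all 8 libraries, at summed levels between 12399 and 24689 CPM (read counts scaled to a common library total), as the tissue label implies. Markers of infiltrating cells differed more within the groups than between them. The 8 neutrophil markers summed to 8543, 12340, 1035 and 939 CPM in vehicle mice 1 to 4 and to 864, 6537, 791 and 1053 CPM in the inhibitor mice. The T cell markers, of which 8 of 10 have a row, summed to 11.3, 14.2, 107 and 214 CPM in the vehicle ears and to 15.6, 34.1, 99.3 and 192 CPM in the inhibitor ears. T cell markers were thus low in mice 1 and 2 of either group, and neutrophil markers were high in vehicle mice 1 and 2 and inhibitor mouse 2. The natural killer cell marker Ncr1 was at 0 in vehicle mouse 1 and inhibitor mouse 1, and the neutrophil marker Mpo in vehicle mice 3 and 4. In whole ears, fewer cells of a type and less RNA per cell cannot be told apart.

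Levels between genes are compared per length, in TPM (read counts divided by gene length and scaled to the same sum in every library) as the authors deposited them. Gbp2, a guanylate-binding protein that attacks the vacuoles of intracellular microbes, was the most abundant of the 38 genes, at 298 ± 61.2 TPM in the vehicle ears and 335 ± 134 TPM in the inhibitor ears (SD, n = 4 each). Psmb8, a catalytic subunit of the immunoproteasome, followed at 179.7 ± 87.9 TPM in the vehicle ears and 218 ± 78.5 TPM in the inhibitor ears (SD, n = 4 each). Isg15, a ubiquitin-like protein that is conjugated to other proteins, came next at 209 ± 62.3 TPM in the vehicle ears and 172 ± 64.97 TPM in the inhibitor ears (SD, n = 4 each). The ranges of 1 SD around the means overlapped between each of these genes and the next, in both groups. Mean levels over the 8 libraries continued with Bst2 (161 TPM), Psmb9 (141 TPM), Tap1 (131 TPM), Zbp1 (119 TPM) and Iigp1 (118 TPM), and 11 of the 38 genes had a mean over 100 TPM. At the other end 5 genes had a mean under 10 TPM, the lowest being Ido1, which breaks down tryptophan, at 1.08 TPM. Ido1 was also the only 1 of the 38 with fewer than 50 reads in any library.

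**Figure D1:**
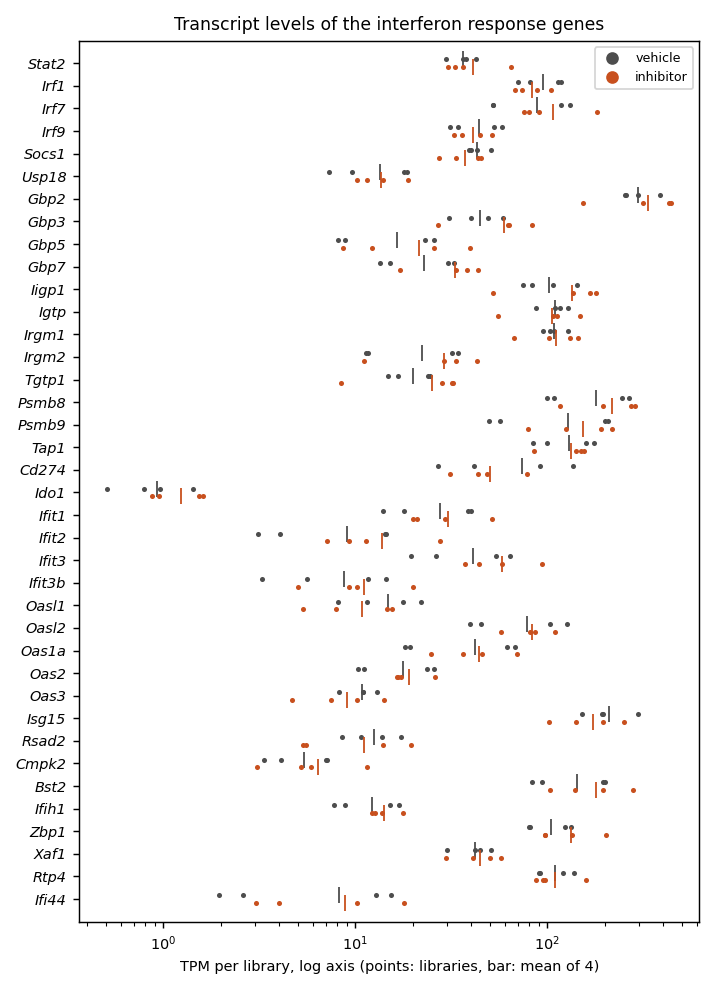
Level of each of the 38 interferon response genes in TPM, as deposited, on a logarithmic axis. Points are the 8 ears, coloured by group, and genes are in rows by role. Means over the 8 libraries run from Gbp2 at 317 TPM to Ido1 at 1.08 TPM, and the points of both groups overlap for every gene.

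Summed over the 38 genes, the level was 1926, 2088, 3085 and 2799 TPM in vehicle mice 1 to 4 and 2507, 1776, 2821 and 3658 TPM in inhibitor mice 1 to 4. Both the lowest and the highest sum belonged to inhibitor ears, and the groups overlapped. The means were 2474 ± 556 TPM (SD, n = 4) with vehicle and 2691 ± 780 TPM (SD, n = 4) with inhibitor. In CPM their order turned, with 3249 ± 281 CPM with vehicle and 3224 ± 731 CPM with inhibitor (SD, n = 4 each). The median of the 38 genes for variation between libraries was also above that of all genes, though not every gene of the 38 was. The fold between the highest and the lowest library, in CPM, had a median of 2.63 over the 38 genes, from 1.59 for Irf9 to 7.35 for Cd274. Over the 14967 tested genes with reads in every library that median was 2.04.

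The central comparison asked whether the inhibitor changed these genes in the inflamed ear. None of the 38 passed an adjusted p of 0.05 in edgeR's quasi-likelihood test, and none of the 15096 genes tested in all did (0.00%). At an unadjusted p of 0.05 edgeR called 0 of the 38 and 157 of all genes (1.04%), and the smallest adjusted p in edgeR was 0.999. DESeq2 and limma-voom also called 0 genes after adjustment, with 293 and 296 of all genes at an unadjusted p below 0.05. For 0 of the 38 did the 4 inhibitor libraries lie outside the range of the 4 vehicle libraries, compared with 1.19% of all genes. The estimates were higher with inhibitor for 25 genes and lower for 13, against 54.5% higher over all genes in the same fit. DESeq2 size factors made these counts 22 and 16 and total counts 27 and 11. The balance turned to 13 higher and 25 lower in limma-voom with quality weights, and to 11 and 27 in edgeR without inhibitor mouse 4. The median log2 difference, inhibitor minus vehicle, was 0.053 over the 38 genes and 0.026 over all genes. With total counts both medians rose, to 0.13 over the 38 and 0.12 over all genes. In the main scaling, the median over the 38 genes changed sign without inhibitor mouse 4 (-0.13), vehicle mouse 1 (-0.046) or vehicle mouse 2 (-0.0045). It was also below 0 in limma-voom (-0.084), and it reached 0.20 without vehicle mouse 3. By role, the estimates were above 0 for all 4 IFIT genes (median 0.35, although Ifit2 and Ifit3 lay below 0 in limma-voom) and all 4 guanylate-binding proteins (median 0.29, with 3 of 4 above 0 on DESeq2 size factors and 1 of 4 on mice 1 and 2 only). They were divided for the 5 immunity-related GTPases (3 higher, median 0.19), the 3 antigen processing genes (2 higher, median 0.19) and the 4 transcription factors (2 higher, median -0.089). The same held for the 5 OAS genes, with 3 higher and a median of 0.017, and the 4 genes of virus restriction, with 2 higher and a median of -0.11. The gamma targets had 10 of 16 higher (median 0.19) and the type I targets 15 of 22 (median 0.038), and these become 9 and 13 with DESeq2 size factors. On mice 1 and 2 only, 5 gamma targets were higher and 11 lower, and on mice 3 and 4 only 14 were higher and 2 lower. The gamma medians in these fits were -0.028 and 0.26, beside 0.032 and 0.0065 over all genes. The share of all genes with a higher estimate in these fits is not given here. The data also bound the size of any difference: the 95% confidence interval lay within a 2-fold change either way for 22 of the 38 genes and within a 4-fold change for 37. Cd274 was the exception. Over all 15096 genes tested these counts were 9581 and 13533. Standard errors of the log2 difference ran from 0.16 for Irf9 to 0.71 for Ifi44, an interferon-induced gene of unsettled function, with a median of 0.31, compared with 0.26 over all genes.

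**Figure D2:**
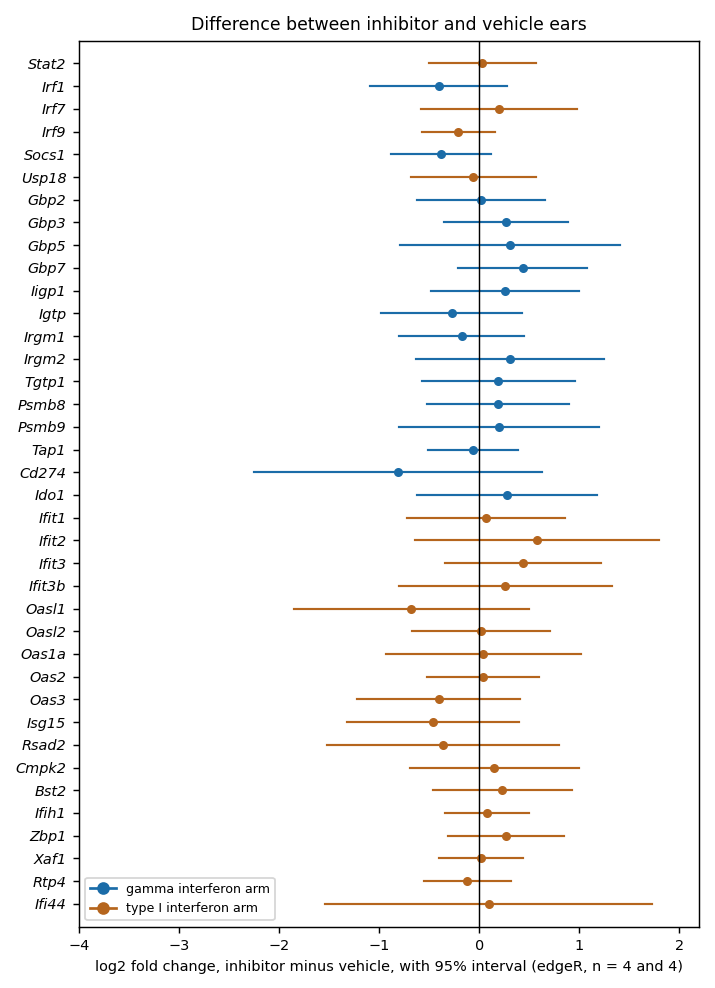
Log2 difference between inhibitor and vehicle ears, from edgeR, for each of the 38 genes, with bars for the 95% confidence interval, grouped by role. Every interval includes 0; the estimates run from -0.81 for Cd274 to 0.57 for Ifit2.

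Values by gene are in CPM, scaled between libraries with edgeR's TMM factors, and are listed for mice 1, 2, 3 and 4 of a group in that order. Differences are log2, inhibitor minus vehicle, with the standard error (SE). Among the transcription factors, Irf1, which is induced through GAS elements and switches on antigen presentation genes, stood at 176, 207, 84.5 and 98.2 CPM in the vehicle ears and 91.5, 97.4, 109 and 128 CPM in the inhibitor ears. Vehicle mice 1 and 2 were the highest of the 8 and vehicle mouse 3 the lowest, with all inhibitor ears between them, and the difference was -0.41 (SE 0.30). Irf9, the DNA-binding subunit of the type I complex, stood at 59.5, 61.2, 78.7 and 71.5 CPM in the vehicle ears and 49.5, 52.04, 61.9 and 71.00 CPM in the inhibitor ears. Each inhibitor ear was below the vehicle ear of the same number, but the groups overlapped, and the difference was -0.21 (SE 0.16). In CPM, Irf9 was the only 1 of the 38 genes lower in all same-number pairs, a pattern shown by 6.19% of all genes. The gap in mouse 4 was small. In TPM, Irf9 was higher in the inhibitor ear of mouse 1 (35.93 against 34.34 TPM) and mouse 2 (32.5 against 31.03 TPM). Irf7, which amplifies type I interferon production, stood at 67.1, 75.5, 134 and 119 CPM in the vehicle ears and 78.3, 94.6, 93.8 and 188 CPM in the inhibitor ears. Inhibitor mouse 4 was the highest and vehicle mice 1 and 2 were the lowest, and the difference was 0.20 (SE 0.34). Stat2, the partner of Irf9, averaged 109 ± 9.23 CPM (SD, n = 4) with vehicle and 111 ± 40.4 CPM (SD, n = 4) with inhibitor, a difference of 0.031 (SE 0.23).

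The feedback inhibitors limit the response that induces them. Socs1, which blocks the receptor kinases and had the smallest unadjusted p of the 38 (0.113 in edgeR, adjusted p = 0.999), stood at 44.9, 39.3, 27.7 and 29.6 CPM in the vehicle ears and 19.2, 27.5, 30.4 and 31.3 CPM in the inhibitor ears. The vehicle ears of mice 1 and 2 were above all others and inhibitor mouse 1 was the lowest, while the vehicle ears of mice 3 and 4 lay among the inhibitor ears. The difference was -0.38 (SE 0.22), with a 95% confidence interval from -0.88 to 0.11. Usp18, which removes Isg15 from proteins and shuts off the type I receptor, stood at 9.28, 13.9, 18.6 and 18.03 CPM in the vehicle ears and 10.4, 13.6, 14.3 and 19.1 CPM in the inhibitor ears. Both groups covered nearly the same range, with vehicle mouse 1 and inhibitor mouse 1 at the bottom of their groups, and the difference was -0.059 (SE 0.27), which turned to 0.011 when total counts replaced TMM.

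The guanylate-binding proteins and the immunity-related GTPases are the classic gamma interferon targets of mouse cells, and both families act on vacuoles that hold microbes. Gbp7 stood at 62.5, 63.1, 104 and 98.1 CPM in the vehicle ears and 126, 65.04, 109.6 and 142 CPM in the inhibitor ears. Each inhibitor ear was above the vehicle ear of the same number, as for 1 other gene of the 38 (Zbp1) and 10.4% of all genes, but the groups overlapped and the difference was 0.43 (SE 0.28). Gbp3 stood at 78.2, 68.5, 88.8 and 74.9 CPM in the vehicle ears and 99.2, 48.5, 97.3 and 129 CPM in the inhibitor ears, with inhibitor mouse 4 highest and inhibitor mouse 2 lowest, and the difference was 0.27 (SE 0.27), or 0.076 without inhibitor mouse 4. Gbp2 stood at 456, 517, 536 and 416 CPM in the vehicle ears and 455, 253, 628 and 608 CPM in the inhibitor ears. Its 4 vehicle ears were close to each other, while the inhibitor ears held both the lowest value, in mouse 2, and the highest, in mouse 3. The difference for Gbp2 was 0.014 (SE 0.28) and turned to -0.0087 with DESeq2 size factors. Gbp5, which also promotes inflammasome assembly, had the widest error of the family, with 0.31 (SE 0.48).

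Iigp1, the most abundant of the immunity-related GTPases, stood at 168, 210.1, 247 and 187 CPM in the vehicle ears and 324, 108, 243 and 296 CPM in the inhibitor ears. Inhibitor mice 1 and 2 were the highest and the lowest of the 8, and the difference was 0.26 (SE 0.32), or 0.088 without inhibitor mouse 1. Igtp stood at 170.4, 212, 125 and 100.3 CPM in the vehicle ears and 174, 74.9, 124 and 129.97 CPM in the inhibitor ears, with vehicle mouse 2 highest, inhibitor mouse 2 lowest and a difference of -0.27 (SE 0.31). It was -0.089 without vehicle mouse 2 and -0.47 without inhibitor mouse 1. Irgm1, a regulator of the other GTPases of the family, followed the order of Igtp at the ends, with means of 159.8 ± 50.7 CPM (SD, n = 4) and 142 ± 37.3 CPM (SD, n = 4) for vehicle and inhibitor and a difference of -0.18 (SE 0.27). Irgm2 averaged 48.9 ± 20.4 CPM with vehicle and 60.5 ± 25.4 CPM with inhibitor (SD, n = 4 each), a difference of 0.31 (SE 0.41). For Tgtp1 the vehicle ears lay between 34.4 and 39.2 CPM and the inhibitor ears at 52.3, 15.9, 46.3 and 52.1 CPM, so that the inhibitor ears lay above the vehicle ears except in mouse 2, and the difference was 0.19 (SE 0.33). Of the 50-base stretches in Tgtp1 transcripts, 81.2% occur in another gene, mainly in its near copy Tgtp2, so the counts of both are uncertain. Without inhibitor mouse 2, Tgtp1, Gbp3, Gbp7 and Iigp1 reached an unadjusted p below 0.05 in edgeR, with log2 differences of 0.44, 0.46, 0.60 and 0.48. That is 4 of 38 genes, beside 2.53% of all genes in the same fit, and the smallest adjusted p over all genes there was 0.987. Low values also lay in the other direction, with Rtp4 at -0.32 without inhibitor mouse 4 (unadjusted p = 0.0439 in edgeR) and Irf9 at -0.28 in limma-voom (unadjusted p = 0.0470), and neither passed after adjustment.

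The products of the antigen processing genes make peptides and carry them to class I molecules. Psmb8 stood at 94.2, 98.8, 180.01 and 168 CPM in the vehicle ears and 137, 93.7, 188 and 198 CPM in the inhibitor ears. Psmb9, another immunoproteasome subunit, stood at 34.04, 33.5, 96.7 and 93.2 CPM in the vehicle ears and 60.4, 44.2, 89.1 and 102 CPM in the inhibitor ears. For both genes mice 3 and 4 were above mice 1 and 2 within each group, and inhibitor mouse 4 was the highest of the 8. Their differences were 0.19 (SE 0.31) and 0.20 (SE 0.43). That of Psmb8 was 0.036 without vehicle mouse 1 and 0.36 without vehicle mouse 3. Tap1, a subunit of the peptide transporter, was closer to level, at 243 ± 42.7 CPM (SD, n = 4) with vehicle and 232 ± 44.2 CPM (SD, n = 4) with inhibitor, and its difference of -0.064 (SE 0.20) turned to 0.020 with total counts.

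Cd274, which encodes PD-L1 and restrains T cells through PD-1, had the largest estimated difference and the widest range of the 38 genes. It stood at 245, 409, 55.7 and 86.2 CPM in the vehicle ears and 103, 193, 66.5 and 92.4 CPM in the inhibitor ears. Mice 1 and 2 were above mice 3 and 4 within each group, and vehicle mice 1 and 2 exceeded all inhibitor ears. The difference was -0.81 (SE 0.63), and the 95% confidence interval, -2.25 to 0.63, reached past a 4-fold decrease and also held an increase. Without vehicle mouse 2 the difference was -0.20, and without inhibitor mouse 2 it was -1.22. Cd274 was the only 1 of the 38 genes for which inhibitor mice 1 and 2 were both above inhibitor mice 3 and 4, an order shown by 27.8% of all genes. Neutrophil marker sums were also highest in vehicle mice 1 and 2 and inhibitor mouse 2, and their part in the Cd274 values was not tested. Ido1 stood at 1.55, 0.620, 0.666 and 0.866 CPM in the vehicle ears and 0.822, 0.870, 1.33 and 1.43 CPM in the inhibitor ears, with vehicle mouse 1 highest and vehicle mouse 2 lowest, and the difference was 0.28 (SE 0.39) on 9 to 28 reads a library.

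The IFIT proteins bind foreign RNA. Ifit3 stood at 37.9, 32.02, 71.4 and 61.1 CPM in the vehicle ears and 67.5, 49.1, 50.2 and 107 CPM in the inhibitor ears. Ifit2, a related protein that also acts in cell death, stood at 11.4, 9.92, 31.9 and 31.8 CPM in the vehicle ears and 21.1, 18.3, 25.6 and 61.7 CPM in the inhibitor ears. In both genes vehicle mice 1 and 2 were low and inhibitor mouse 4 was the highest. Ifit2 had the highest estimate of the 38 genes, 0.57 (SE 0.53), and Ifit3 had 0.43 (SE 0.34). Without inhibitor mouse 4 these estimates were 0.027 and 0.14. Ifit1, which binds RNA with an incomplete cap, had 0.067 (SE 0.35), and Ifit3b 0.26 (SE 0.46). Reads of Ifit3 and Ifit3b can be exchanged, since 51.2% and 45.0% of their 50-base stretches occur in another gene, mainly in each other.

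The OAS proteins sense double-stranded RNA. Oasl1, a relative that in mice restrains Irf7 translation, stood at 24.8, 36.5, 9.28 and 13.3 CPM in the vehicle ears and 8.84, 20.4, 6.34 and 16.8 CPM in the inhibitor ears. Vehicle mouse 2 was the highest and inhibitor mouse 3 the lowest, with a difference of -0.68 (SE 0.51), which was -0.29 without vehicle mouse 2 and -1.003 without inhibitor mouse 2. Oas3 stood at 28.4, 51.03, 29.7 and 29.7 CPM in the vehicle ears and 12.95, 32.6, 20.5 and 38.5 CPM in the inhibitor ears. Vehicle mouse 2 lay far above the other vehicle ears, inhibitor mouse 1 was the lowest of the 8, and the difference was -0.41 (SE 0.35), or -0.18 without vehicle mouse 2. Oasl2, the most abundant of the group, stood at 77.6, 101, 195 and 159 CPM in the vehicle ears and 136, 104, 127 and 171 CPM in the inhibitor ears. Vehicle mouse 3 was the highest and vehicle mouse 1 the lowest, and the difference of 0.017 (SE 0.30) turned to -0.0027 with DESeq2 size factors. Oas1a and Oas2 had differences of 0.039 (SE 0.43) and 0.037 (SE 0.24). The Oas1a counts are uncertain, because 57.6% of its 50-base stretches occur in another gene, mainly in Oas1g.

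Isg15 stood at 79.3, 177, 79.9 and 79.03 CPM in the vehicle ears and 43.04, 94.4, 59.3 and 105 CPM in the inhibitor ears. Vehicle mouse 2 was more than 2 times as high as the other vehicle ears, which lay between 79.0 and 79.9 CPM, and the difference of -0.46 (SE 0.37) moved to -0.094 without it. Bst2, which tethers budding viruses to the cell, stood at 53.2, 52.9, 87.8 and 86.4 CPM in the vehicle ears and 63.3, 54.1, 87.3 and 124 CPM in the inhibitor ears. Inhibitor mouse 4 was the highest and vehicle mice 1 and 2 the lowest, and the difference of 0.23 (SE 0.30) turned to -0.037 without inhibitor mouse 4. Rsad2, which makes a chain-terminating nucleotide, and Cmpk2, a mitochondrial nucleotide kinase encoded beside it, had differences of -0.36 (SE 0.50) and 0.15 (SE 0.37).

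Zbp1, which senses nucleic acid in the Z form and triggers necroptosis, stood at 59.5, 63.5, 84.1 and 78.4 CPM in the vehicle ears and 60.5, 67.96, 84.8 and 129.8 CPM in the inhibitor ears. Each inhibitor ear was above the vehicle ear of the same number, by little in mice 1, 2 and 3. The difference was 0.27 (SE 0.25), and -0.0039 without inhibitor mouse 4. Rtp4, which restrains type I interferon output in mice, stood at 76.7, 82.9, 87.5 and 77.6 CPM in the vehicle ears and 57.8, 72.7, 64.4 and 104 CPM in the inhibitor ears, with inhibitor mice 4 and 1 the highest and the lowest of the 8 and a difference of -0.12 (SE 0.19). The RNA sensor Ifih1 had 0.077 (SE 0.18). Xaf1, a pro-apoptotic protein, had 0.019 (SE 0.18), which turned to -0.0046 with DESeq2 size factors. Ifi44 ran from 4.04 CPM in vehicle mouse 1 to 29.2 CPM in inhibitor mouse 4, and its difference was 0.093 (SE 0.71).

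The highest and lowest values of the 38 genes were unevenly spread over the libraries. Inhibitor mouse 4 was the highest of the 8 libraries for 20 of the 38 genes, compared with 21.0% of all genes, and on the TPM scale for 24, compared with 24.7%. It was highest for 14 of the 22 type I targets and 6 of the 16 gamma targets. Inhibitor mouse 2 was the lowest library for 11 genes, compared with 5.40% of all genes, and 10 of the 11 were gamma targets: Gbp2, Gbp3, Gbp5, Iigp1, Igtp, Irgm1, Irgm2, Tgtp1, Psmb8 and Tap1. The other was Xaf1. On the TPM scale inhibitor mouse 2 was lowest for 9 genes, compared with 5.11%. Vehicle mouse 1 was the lowest library for 10 genes, compared with 17.5% of all genes, and 9 of the 10 were type I targets. On the TPM scale it was lowest for 8 genes, compared with 15.2%. Vehicle mouse 2 was the highest for 8 of the 38 genes in CPM, which is near the share of all genes (20.4%). In TPM it was the highest for 4, against 7.09%.

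The mean log2 CPM over the 16 gamma targets was 6.19, 6.27, 6.28 and 6.24 in vehicle mice 1 to 4 and 6.30, 5.69, 6.40 and 6.63 in inhibitor mice 1 to 4. The vehicle means were nearly level. Of the 16 genes, 7 were higher and 5 lower in both vehicle mice 3 and 4 than in vehicle mice 1 and 2. Over all genes these shares were 40.7% and 37.8%. The mean of inhibitor mouse 2 lay below and that of inhibitor mouse 4 above the rest. Over the 22 type I targets the means were 4.94, 5.21, 5.57 and 5.51 with vehicle and 4.95, 5.19, 5.17 and 5.92 with inhibitor. Here mouse 1 was the lowest in both groups and inhibitor mouse 4 the highest. The SD of the gamma mean was 0.039 over the vehicle ears and 0.40 over the inhibitor ears, and that of the type I mean was 0.29 and 0.42. Both group means of either arm were nearly equal, 6.24 and 6.26 for the gamma targets and 5.31 in each group for the type I targets. Macrophage and monocyte markers, 8 of 8 with a row, summed to 1002, 972, 1140 and 1748 CPM with vehicle and to 380, 1258, 1351 and 2777 CPM with inhibitor. Inhibitor mouse 4 was thus the highest for these markers too. It was also the highest for the summed markers of natural killer cells (213 CPM), plasmacytoid dendritic cells (341 CPM, Bst2 included), endothelium (292 CPM), fibroblasts (5518 CPM) and skeletal muscle (1558 CPM). For muscle, inhibitor mice 1 and 3 were close to it, at 1542 and 1483 CPM. It was not the highest for the markers of T cells, dendritic cells, neutrophils or keratinocytes. The part of any of these cell types in its high interferon response genes was not tested.

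**Figure D3:**
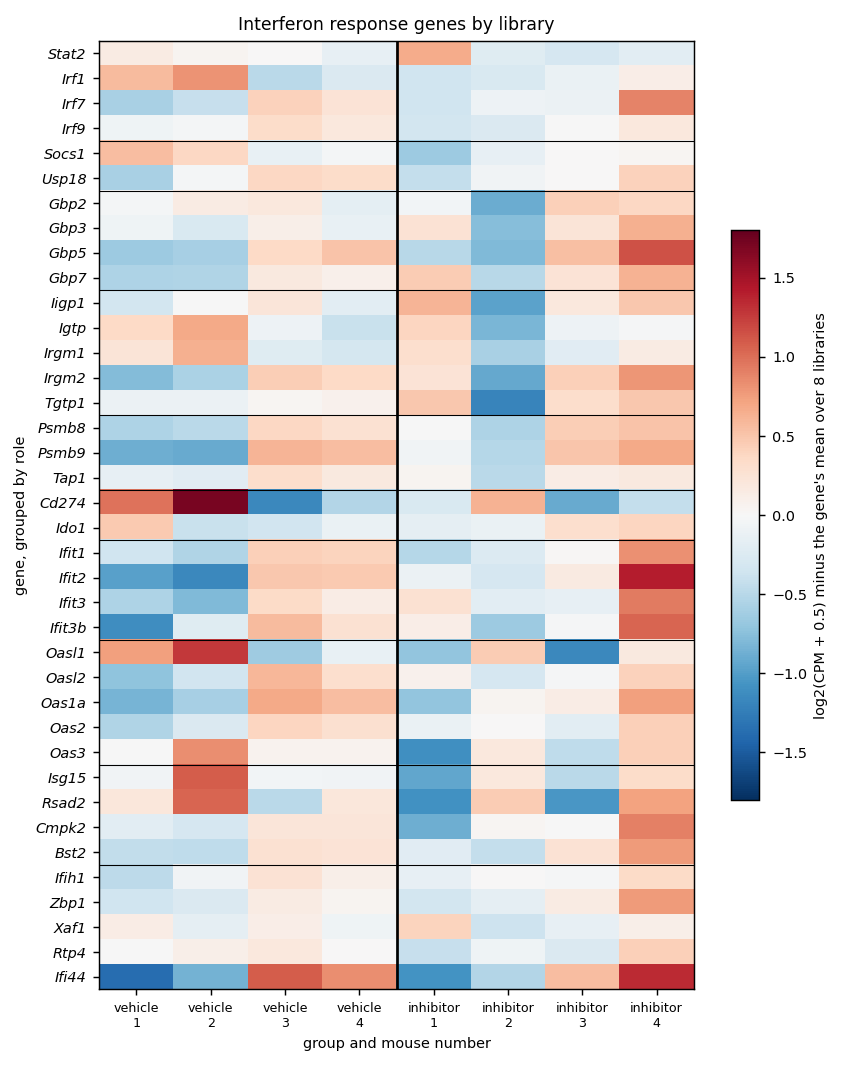
Level of each of the 38 genes in each ear, as log2 CPM minus the mean of that gene over the 8 libraries, with genes in rows by role and libraries in columns by group. Inhibitor mouse 4 is highest in 20 rows, and inhibitor mouse 2 is lowest in 11, among them most guanylate-binding proteins and immunity-related GTPases.

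Same-number mice of the 2 groups deviated from their group means together, and each inhibitor ear was also set against the vehicle ear of its number. Some mice of different numbers deviated together as strongly, so these values do not separate a pairing by number from a division between mice 1 and 2 and mice 3 and 4. In mouse 1 the inhibitor ear was higher for 25 of the 38 genes, against 53.3% of all genes. In mouse 2 it was higher for 15 genes, against 50.7%. These 15 comprised 3 of the 16 gamma targets and 12 of the 22 type I targets. In mouse 3 it was higher for 12 genes, against 52.0%, and here 11 were gamma targets and only Zbp1 was a type I target. In mouse 4 it was higher for 35 genes, against 55.9%, with 15 of 16 gamma and 20 of 22 type I targets. The pairs thus pointed in different directions, with mostly gamma targets lower in mouse 2 and mostly type I targets lower in mouse 3.

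On the TPM scale the inhibitor ear was higher for 28, 22, 11 and 35 of the 38 genes in mice 1 to 4, against 72.0%, 72.7%, 45.2% and 53.1% of all genes. The median pair difference of the gamma targets was 0.18, -0.50, 0.10 and 0.42 on the log2 CPM scale in mice 1 to 4. That of the type I targets was 0.19, 0.040, -0.43 and 0.41, and over all genes the median lay between 0.0095 and 0.035. The 9 guanylate-binding proteins and immunity-related GTPases were lower with inhibitor in mouse 2 for 8 of the 9 (median -0.95), and higher in mouse 4 for all 9 (median 0.53). In mouse 3 the 4 IFIT genes and the 5 OAS genes were all lower with inhibitor, with medians of -0.46 and -0.55, and in mouse 4 all 9 were higher, with medians of 0.79 and 0.18. When edgeR's fit took the number as a block, it called 0 of the 38 genes and 0 of all genes, and 0 of the 38 had an unadjusted p below 0.05, compared with 724 of all genes.

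**Figure D4:**
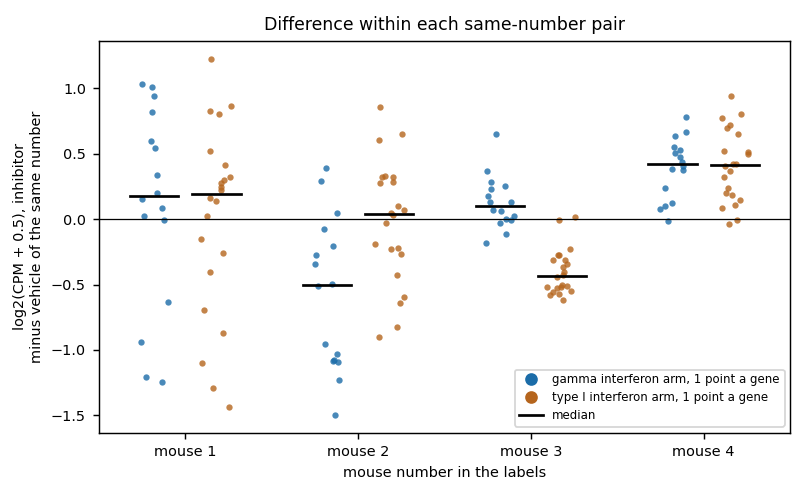
Log2 CPM of the inhibitor ear minus that of the vehicle ear with the same mouse number, for the 16 gamma interferon targets and the 22 type I interferon targets. Each point is a gene and each line the median, which for the gamma targets is -0.50 in mouse 2 and 0.42 in mouse 4, and for the type I targets -0.43 in mouse 3 and 0.41 in mouse 4.

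Within the vehicle group, 22 of the 38 genes were higher in both mouse 3 and mouse 4 than in mice 1 and 2, compared with 40.7% of all genes, and 7 were lower in both (Stat2, Irf1, Socs1, Igtp, Irgm1, Cd274 and Oasl1), compared with 37.8%. In TPM these counts were 28 (all genes 61.7%) and 5 (18.3%), and Stat2 and Socs1 dropped out of the lower set. Fitted on mice 1 and 2 only, the differences were -1.02 for Irf1, -0.85 for Socs1 and -1.14 for Cd274, and 0.62, 0.88 and 0.73 for Psmb9, Ifit2 and Ifit3. These 6 genes had an unadjusted p below 0.05 in edgeR, as did 16.9% of all genes in that fit, and none passed after adjustment. On mice 3 and 4 only, Irf1 was at 0.35, Socs1 at 0.084 and Cd274 at 0.14, and Irf1 and Tgtp1 had an unadjusted p below 0.05, as did 3.65% of all genes. Whether the effect differs between mice 1 and 2 and mice 3 and 4 was not tested.

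Upstream of these genes, the interferons themselves were hardly read. Ifng, the gene of gamma interferon, stood at 0.538, 0.964, 2.26 and 3.16 CPM in the vehicle ears and 0.548, 0.560, 2.66 and 3.84 CPM in the inhibitor ears, which is 8, 14, 44 and 62 reads and 8, 9, 52 and 75 reads. Mice 3 and 4 were above mice 1 and 2 in both groups, and the difference was 0.14 (SE 0.77). Within each group Ifng followed the order of the T cell marker sums. It also followed that of the natural killer cell marker sums, which were 16.1, 30.6, 71.4 and 175 CPM with vehicle and 16.3, 28.9, 92.7 and 213 CPM with inhibitor. The part of either in the Ifng values was not tested. Ifnb1 and Ifna4 each had 1 read in a single library, Ifnk had 2 and 3 reads in vehicle mice 2 and 4, and Ifnz had 13 reads in vehicle mouse 1. These 4 had too few reads to be tested, and Ifna1, Ifna2, Ifne, Ifnl2 and Ifnl3 were not analysed here.

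The receptors were well covered, and 0 of the 6 passed the test, with 5 estimates higher and 1 lower. Ifngr1 stood at 116 ± 62.3 CPM with vehicle and 152 ± 35.1 CPM with inhibitor (SD, n = 4 each), a difference of 0.39 (SE 0.39). Ifngr2 had 0.38 (SE 0.36), Ifnar1 0.16 (SE 0.18) and Ifnar2 -0.092 (SE 0.19), which turned upward with total counts. Of the 5 kinases and STATs 0 passed, with Jak1 at -0.28 (SE 0.21), Tyk2 at 0.19 (SE 0.24) and Jak2 at -0.21 (SE 0.28). Among 8 other negative regulators 0 passed, with Ptpn2 at -0.34 (SE 0.35) and Irf2bp2 at 0.14 (SE 0.18). Socs3 had the largest estimate of these, -0.86 (SE 0.74), with 479 ± 424 CPM in vehicle ears and 265 ± 132 CPM in inhibitor ears (SD, n = 4 each), and like Socs1 it was highest in vehicle mice 1 and 2. A further 44 interferon-induced genes outside the 38 were tested, and 0 passed, with 30 estimates higher and 14 lower and a median of 0.083, compared with 0.026 over all genes. With DESeq2 size factors these were 29 and 15, and with total counts 34 and 10. The median with total counts was 0.16, compared with 0.12 over all genes. Those with the smallest unadjusted p were Eif2ak2, the kinase that halts translation on double-stranded RNA, at 0.19 (SE 0.13), Slfn5 at 0.51 (SE 0.39) and Ifi27 at 0.29 (SE 0.23).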

How the data were processed

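Polyadenylated RNA from 8 left ears was sequenced on DNBSEQ in single-end reads 50 bases long, per the labels' protocols. HISAT and build GRCm39 come from the submitters' processing notes. How reads were counted, and on which annotation, is not given in the sources used here. Per gene and library the authors deposited estimated counts, FPKM and TPM. Between 33.7% and 35.3% of the count values in a library were not whole (tolerance 1e-09), so they were treated like expected counts and rounded. The deposited TPM, scaled by the authors to length and a fixed total, served for levels between genes and in alternatives. FPKM and 6 columns of the authors' group means were not used.

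Groups were taken from the sample titles. Same-group libraries differed beyond sampling noise (chi-square per degree of freedom 22.8 to 289), and all counted as replicates. The test was edgeR's (4.0.16) quasi-likelihood test on all 8 libraries, with filterByExpr (15096 genes left), TMM factors (0.815 to 1.08), no covariate, Benjamini-Hochberg adjustment over all genes and a threshold of 0.05. The biological coefficient of variation was 41.0%. CPM carry the TMM scaling, and means of log2 CPM add 0.5. Alternatives used DESeq2 1.42.0 and limma 3.58.1 and are in the closing section. Correlations of the deviations of same-number libraries were 0.397, 0.710, 0.673 and 0.682. Each is over 0.1, the bar set for pairing, but no label says what same-number mice share. Different numbers reached 0.554 (vehicle mouse 1 with inhibitor mouse 2) and 0.685 (vehicle mouse 4 with inhibitor mouse 3). Shared stretches were counted on GENCODE transcripts supplied for another build and used for names and sequence only.

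The members and lists were chosen with earlier results of these data known. Values in all 8 libraries are printed for the 2 genes of each role with the smallest unadjusted p and for the most abundant of each role. Genes outside the 38 are named by smallest p within their list (up to 3), with Ifng, Ifngr1, Ifngr2, Ifnar1 and Ifnar2 always named. A further gene is not reported here. Any other was chosen after its values were seen.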

Additional observations from a re-analysis of the deposited data

Results flagged for a closer look

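In each of the 76 sets of 4 libraries (38 genes in 2 groups), the highest and the lowest library were set against the others with Dixon's test on log2 CPM, which marks about 1 set in 20 by chance. A single library stood apart in 4 sets. Stat2 in inhibitor mouse 1 was at 172 CPM, with the other inhibitor ears between 86.8 and 94.4 CPM (gap over range 0.877). Tgtp1 in inhibitor mouse 2 was at 15.9 CPM, with the others between 46.3 and 52.3 CPM (0.897). Oas3 in vehicle mouse 2 was at 51.0 CPM, with the others between 28.4 and 29.7 CPM (0.924). Isg15 in vehicle mouse 2 was at 177 CPM, with the others between 79.0 and 79.9 CPM (0.987).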

How the results depend on the processing

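After adjustment 0 of the 38 genes and 0 of all genes were called under every alternative run: scaling by total counts or by DESeq2 size factors, no filter or 1 CPM in every library, limma-trend on log2(TPM + 1) and log2(TPM + 0.1), limma-voom (quality weights), DESeq2, the replicate block, either pair of mouse numbers alone, a threshold of 0.1, and each library left out (0 to 0 genes). At an unadjusted p of 0.05, 157 genes would be called. The replicate block changed no call. TPM shifted the median of all genes to 0.15 (pseudocount 1) and 0.17 (pseudocount 0.1), from 0.026. The median over the 38 genes ran from -0.13 to 0.20 with a library left out and from -0.084 (limma-voom) to 0.19 (TPM) otherwise. Of 377 comparisons of 20 named genes with an alternative, 351 kept the direction and 26 reversed. The cause was not tested. Limma-voom gave 0.13 for Irf1, -0.10 for Psmb9, 0.11 for Cd274, -0.073 for Ifit3 and -0.014 for Ifit2. Mice 3 and 4 only gave 0.35 for Irf1, 0.084 for Socs1, 0.15 for Igtp, -0.017 for Psmb9, 0.14 for Cd274, 0.0016 for Oasl1, 0.016 for Isg15 and 0.00036 for Rtp4. Mice 1 and 2 only gave 0.051 for Usp18, -0.00093 for Gbp3 and -0.36 for Ido1. Usp18 turned to 0.011 with total counts and to 0.087 and 0.099 on TPM. Leave-one-out values ran from -0.25 to 0.067 for Usp18, from -0.032 to 0.46 for Psmb9, from -0.037 to 0.36 for Bst2 and from -0.0039 to 0.40 for Zbp1. Without reversal they ran from -0.58 to -0.18 for Irf1, -0.31 to -0.12 for Irf9, -0.48 to -0.25 for Socs1, 0.29 to 0.60 for Gbp7, 0.11 to 0.62 for Ido1 and -0.32 to -0.013 for Rtp4. Ido1 has no value under the filters on CPM and TPM. With 4 ears a group, the 95% confidence interval extended past a 2-fold change for 16 of the 38 genes. It lay within a 2-fold change for 9581 of all 15096 genes tested.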

Other observations

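Other genes around the interferon response likewise gave no call. Of 6 other interferon regulatory factors 0 passed the test in edgeR, with 5 estimates higher and 1 lower, and Irf3, which answers to nucleic acid sensors, had the smallest p, at 51.1 ± 1.34 CPM with vehicle and 56.4 ± 4.65 CPM with inhibitor (SD, n = 4 each). Its log2 difference was 0.14 (SE 0.10), and those of Irf5 and Irf8 were 0.21 (SE 0.30) and 0.25 (SE 0.45). Of 13 nucleic acid sensing genes 0 passed, 7 were higher and 6 lower, or 6 and 7 with DESeq2 size factors. Sting1, the adaptor of the DNA sensor cGAS, stood at 35.5, 45.7, 48.8 and 56.2 CPM in the vehicle ears and 56.5, 48.7, 46.2 and 80.3 CPM in the inhibitor ears. Inhibitor mouse 4 was the highest and the groups overlapped, with 0.32 (SE 0.22). The difference was 0.32 (SE 0.26) for Dhx58 and -0.38 (SE 0.34) for Aim2, a sensor of DNA that forms an inflammasome. Of 11 class I presentation genes 0 passed, with 6 estimates higher and 5 lower and a median of 0.0040. With DESeq2 size factors these counts were 5 and 6. Psme2, a proteasome activator subunit, stood at 231, 214, 358 and 281 CPM in the vehicle ears and 377, 265, 357 and 309 CPM in the inhibitor ears. In CPM inhibitor mouse 2 was not the lowest library for Psme2, unlike for Psmb8 and Tap1, and the difference for Psme2 was 0.27 (SE 0.20). In TPM the lowest library for Psmb8 and Tap1 was vehicle mouse 2. Psmb10, an immunoproteasome subunit, had 0.30 (SE 0.23), and Erap1, which trims peptides for class I molecules, had 0.21 (SE 0.18).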
